A study of Homo sapiens with 16 samples.

Results

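The AP-1 family genes described here are FOS, FOSB, FOSL1, FOSL2, JUN, JUNB, JUND and ATF3. They were taken by gene name from the deposited tables, where all 8 had a row among 58721 genes. Their RNA was followed across 16 libraries, made from 2 human cell lines of bladder cancer. RT112 is a line of the luminal type, grown in RPMI, and SCaBER is a line of the basal type, grown in DMEM, both with serum, so that line and medium cannot be told apart. Cells of each line received 10 nM (per the labels) of 1 of 4 small interfering RNAs (siRNAs) by lipid transfection. Of these, siFOXA1.1 and siFOXA1.2 target FOXA1, a forkhead transcription factor of luminal urothelium, whereas siControl.1 and siControl.2 are controls. Each siRNA has 2 libraries per line, numbered 1 and 2 as experiment batch replicates, and the study describes the knock-down as short, under 72 h. Each line is a single cell line without untransfected cells, and nothing states that the batches were separate thaws. The p-values therefore measure the spread between these libraries, some of which may be technical.

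AP-1 is a transcription factor made of a pair of bZIP proteins, usually 1 of the FOS family (FOS, FOSB, FOSL1 also called FRA1, FOSL2 also called FRA2) with 1 of the JUN family (JUN, JUNB, JUND). JUN proteins can also pair with each other or with ATF proteins, whereas FOS proteins cannot form stable pairs on their own. ATF3 is a stress-induced relative that can pair with JUN proteins or with itself. Several of these genes are immediate early genes, with short-lived transcripts that rise and fall quickly after growth factors or stress, so their level depends on the moment of harvest. In squamous and basal epithelia AP-1 is known for driving genes of migration, matrix breakdown and keratinisation.

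JUN, JUND and ATF3 are the members that rose in both lines under siFOXA1.1, and JUNB is the member that passed the test of a difference between the lines, in a call that most fits without 1 library lost, so stretches of their promoters are shown. Promoters of RefSeq (GRCh38.p14), running from 250 bases before to 50 bases after a gene's start, were searched on both strands for the AP-1 element TGACTCA, the cAMP response element TGACGTCA, the related TGACATCA known from the JUN promoter and the forkhead element TGTTTAC. None of these motifs contains another. Of the 8 genes, 7 had a promoter entry. The stretches of 120 bases below are written 5′ to 3′ on the strand of the gene, with the motif in capitals.
JUN, chr1:58784051-58784170, minus strand: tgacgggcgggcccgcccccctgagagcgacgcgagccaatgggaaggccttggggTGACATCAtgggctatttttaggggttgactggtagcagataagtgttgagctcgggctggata
JUND, chr19:18281753-18281872, minus strand: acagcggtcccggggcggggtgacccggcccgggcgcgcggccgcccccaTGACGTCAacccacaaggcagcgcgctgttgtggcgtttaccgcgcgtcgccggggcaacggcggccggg
ATF3, chr1:212565228-212565347, plus strand: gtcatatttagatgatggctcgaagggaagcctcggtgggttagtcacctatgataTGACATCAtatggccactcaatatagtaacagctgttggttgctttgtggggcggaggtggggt
JUNB, chr19:12791264-12791383, plus strand: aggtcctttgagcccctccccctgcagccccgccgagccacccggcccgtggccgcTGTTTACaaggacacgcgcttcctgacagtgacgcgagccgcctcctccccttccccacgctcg

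The JUN promoter and 1 of the 2 ATF3 promoter entries held the same 8 letters, starting 67 and 123 bases before the start, whereas the other ATF3 entry held none of the motifs. JUND held the cAMP response element 200 bases before its start. JUNB held the forkhead letters 166 bases before its start. FOSL2 held TGACTCA inside its transcript, and the FOS and FOSB windows held none of the 4 motifs. Among 35116 promoters, TGACATCA was in 2.61%, TGACGTCA in 1.85%, TGACTCA in 4.95% and TGTTTAC in 3.42%. A match is a description of letters and not a bound site.

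Library totals ran from 4528513 to 7604581 counts. A floor of 3 counts per library, which covers counting error alone, was 0.394 to 0.662 CPM (counts scaled to the total of the library). FOXA1 checked the labels. In RT112 it had 266 and 195 counts under siControl.1 and 137 and 204 under siControl.2, against 9 and 22 under siFOXA1.1 and 63 and 117 under siFOXA1.2. All 4 siFOXA1 libraries were below all 4 control libraries, and siFOXA1.1 left 8.21% of the control mean in CPM whereas siFOXA1.2 left 45.3% (log2 fold change -3.44, SE 0.47, edgeR adjusted p = 2.19e-05, and -1.10, SE 0.39, adjusted p = 0.205). In SCaBER FOXA1 was near the floor, with 0 to 15 counts, so that its fall could not be followed there. Under siControl 8 of 10 luminal and 5 of 10 basal markers were over 20 CPM in RT112, against 3 of 10 luminal and 8 of 10 basal markers in SCaBER. KRT20 and UPK3A were at 0 in both lines, and the basal marker KRT16 was at 56.0 CPM in RT112 and 30.4 CPM in SCaBER. Of 9 markers of immune, endothelial and fibroblast cells, 6 in RT112 and 7 in SCaBER had no more than 3 counts in any control library, PTPRC, CD3E, COL3A1 and DCN being at 0. LUM was at 97.6 CPM in RT112. Library features moved with siFOXA1.1: mitochondrial genes took 25.7 to 28.2% of the RT112 counts, against 18.0 to 21.2% under siControl, and 16 interferon genes summed to 2198 and 2572 CPM against 385 to 444 CPM.

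To ask which AP-1 genes each line uses without FOXA1 siRNA, levels were compared in TPM (counts per gene length, scaled to the same sum in each library) over the 4 siControl libraries of a line. FOSL1 was by far the most abundant FOS family gene of SCaBER on either scale, whereas the order within RT112 depended on the scale. In RT112 JUND was highest, at 329 TPM ± 32.4 (SD, n = 4), above JUNB at 136 ± 24.8 and JUN at 113 ± 29.7, which overlapped each other. FOSL2 followed at 17.8 TPM ± 1.86, FOSL1 at 13.4 ± 2.74 and FOS at 12.3 ± 1.29 (SD, n = 4 each), neighbours in the order whose libraries overlapped. In CPM, which is not divided by length, these 3 genes did not overlap, at 56.7 to 68.7 CPM for FOSL2, 16.9 to 22.8 for FOS and 9.17 to 15.9 for FOSL1, and JUN (203 CPM ± 47.1, SD, n = 4) stood above JUNB (127 ± 26.8) with overlapping libraries. Reads of this assay come from the 3′ end of transcripts, so both scales are given. ATF3 had 4.43 TPM ± 1.2 and FOSB 0.710 ± 0.869 (SD, n = 4 each).

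In SCaBER FOSL1 had 519 TPM ± 226 (SD, n = 4), overlapping JUND at 388 ± 43.5. JUN at 160 ± 30.1 TPM and JUNB at 157 ± 55.2 TPM overlapped each other, as did ATF3 at 19.9 ± 10.4 TPM and FOSL2 at 11.9 ± 3.46 TPM (SD, n = 4 each). FOSB had 0.628 ± 0.553 TPM and FOS 0.525 ± 0.670 TPM. The plot of control levels shows that the JUN genes lay close together in both lines, whereas FOS and FOSL1 were far apart.

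**Figure D1:**
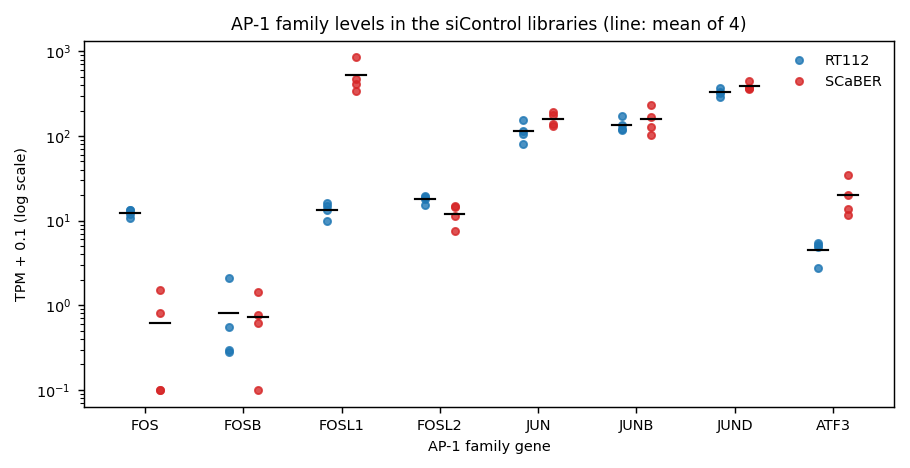
TPM + 0.1 on a log axis of each AP-1 family gene in the 4 siControl libraries of RT112 (blue) and SCaBER (red), with the mean as a line. FOSL1 was at 344.8 TPM or more in every SCaBER library and at most 16.1 TPM in RT112, and FOS was at 1.40 TPM or less in SCaBER and 10.6 TPM or more in RT112.

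Between the lines 4 of the 7 members tested passed at an adjusted p under 0.05 in edgeR (the quasi-likelihood test, Benjamini-Hochberg over all genes tested), against 43.4% of all 12309 genes. FOS is 1 of these and entered the test through RT112 alone, so that it had to differ, and without it the count was 3 of 6. FOSL1 and ATF3 were higher in SCaBER, as were 22.2% of all genes, and FOS and FOSL2 were lower, as were 21.2%. FOSL1, whose protein is typical of invasive and squamous carcinoma cells, had 2135 and 3878 counts under siControl.1 and 1593 and 1366 under siControl.2 in SCaBER. In RT112 it had 121, 97, 92 and 66. No library of a line came near the other line, and the log2 fold change was 4.85 (SE 0.28, edgeR adjusted p = 5.58e-09).

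FOS, the classical serum-induced member, went the other way. It had 153, 151, 127 and 154 counts in the RT112 siControl libraries and 0, 11, 0 and 4 in those of SCaBER. With 1 of 4 SCaBER and 4 of 4 RT112 libraries at 10 counts or more, it passed the filter only where it was high, and its fitted log2 fold change of -4.95 (SE 0.70) is given as a description. As a floor of 3 counts lies above 2 of the 4 SCaBER libraries, the size of the difference is not exact.

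ATF3 had 32.1, 52.7, 18.5 and 21.4 CPM in SCaBER siControl against 5.65, 10.1, 10.5 and 10.1 CPM in RT112. The ranges did not meet (log2 fold change 1.76, SE 0.35, edgeR adjusted p = 0.000822). FOSL2 was at 21.1 to 40.4 CPM in SCaBER and at 56.7 to 68.7 CPM in RT112 (log2 fold change -0.98, SE 0.21, edgeR adjusted p = 0.00172), and the call was lost with limma on TPM (adjusted p = 0.0556). JUN, JUNB and JUND overlapped between the lines, with log2 fold changes of 0.10 (SE 0.17), -0.21 (SE 0.22) and -0.16 (SE 0.14) and edgeR adjusted p of 0.658, 0.483 and 0.381. On TPM the sign turned for JUNB (0.16) and JUND (0.24). FOSB did not pass the filter on low counts for this comparison. It had 4, 9, 41 and 4 counts in RT112 and 18, 0, 9 and 5 in SCaBER.

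The next comparison asks how each member changed when FOXA1 was targeted. In RT112, 5 of the 8 members tested passed under siFOXA1.1 against both controls in edgeR, against 32.6% of all 11986 genes. FOSB is 1 of these and passed the filter on low counts through the siFOXA1 libraries alone, so that it had to differ, and without it the count was 4 of 7. JUN, JUND, ATF3 and FOSB were higher, as were 15.6% of all genes, and FOS fell, as did 17.0%. In SCaBER 3 of the 6 tested members passed, against 9.26% of all 11902 genes. That background share was 4.29% (526 genes) without siControl.2 replicate 1 and 4.82% (593 genes) without siControl.2 replicate 2, where 0 and 1 members passed. JUN, JUND and ATF3 rose, as did 4.47% of all genes there, and no member fell, against 4.79% of all genes.

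**Figure D2:**
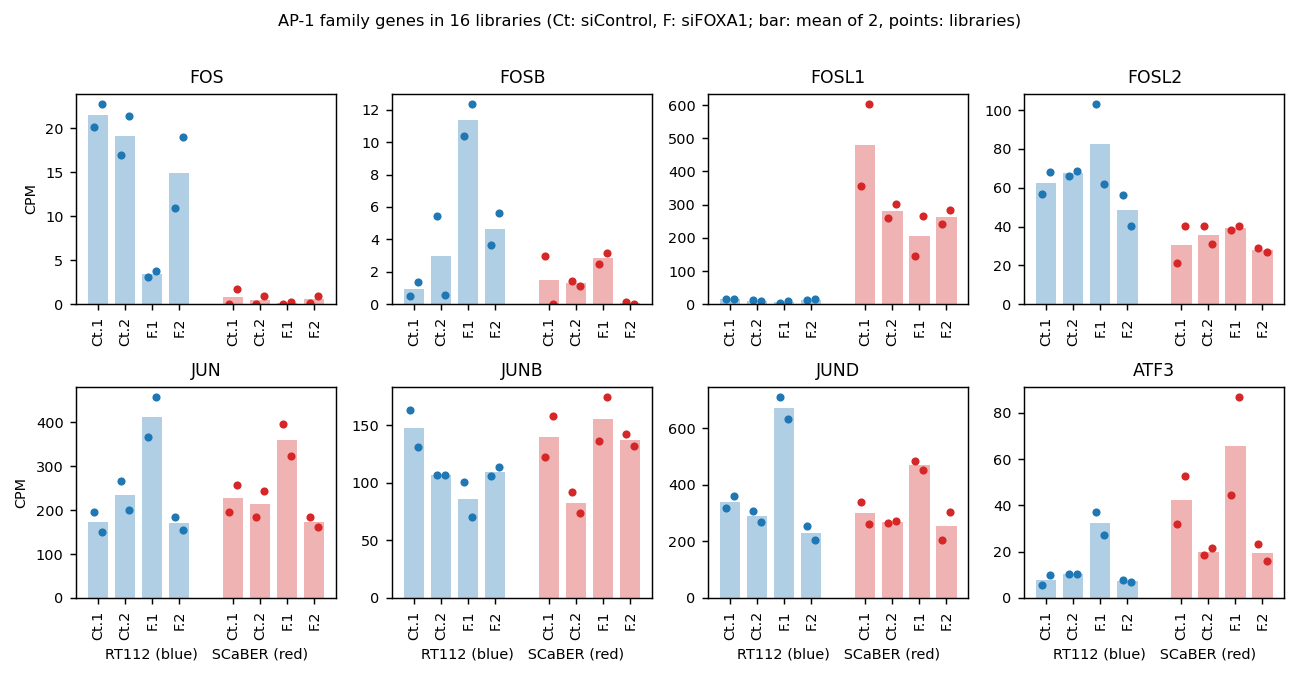
CPM of each AP-1 family gene in the 16 libraries, by siRNA (Ct.1 and Ct.2: siControl.1 and siControl.2; F.1 and F.2: siFOXA1.1 and siFOXA1.2) for RT112 (blue) and SCaBER (red), with points for libraries and bars for the mean of 2. JUN and JUND stood above all other libraries of their line under siFOXA1.1, and FOS in RT112 stood below.

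JUN encodes c-Jun, the member with the strongest transactivation, which acts on its own promoter. In RT112 it had 195, 151, 266 and 201 CPM under siControl, 367 and 457 CPM under siFOXA1.1 and 184 and 155 CPM under siFOXA1.2. Both siFOXA1.1 libraries stood above every other RT112 library. The mean was 2.03-fold the control mean (log2 fold change 1.17, SE 0.14, edgeR adjusted p = 6.22e-06), and the rise was 0.67 in batch 1 and 1.37 in batch 2 as log2 ratios of CPM + 1.

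In SCaBER JUN had 195, 258, 184.5 and 243 CPM under siControl, 397 and 322 CPM under siFOXA1.1 and 184 and 162 CPM under siFOXA1.2. Again the siFOXA1.1 libraries were the highest, at 1.63-fold (log2 fold change 0.75, SE 0.19, edgeR adjusted p = 0.0228; within batches 1.06 and 0.36). This call was near the threshold. The adjusted p was 0.0688 without siControl.1 replicate 1, 0.130 without siControl.2 replicate 1, 0.101 without siFOXA1.1 replicate 1, 0.0518 and 0.0508 without siFOXA1.2 replicate 1 or 2, and 0.0792 with limma on TPM.

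JUND, the JUN gene that is expressed most steadily and often restrains growth, had 316, 362, 307 and 269.8 CPM in RT112 siControl. It had 709 and 633 CPM under siFOXA1.1 and 256 and 207 CPM under siFOXA1.2. It was the most abundant member and rose 2.14-fold under siFOXA1.1 (log2 fold change 1.24, SE 0.11, edgeR adjusted p = 2.22e-07; within batches 1.18 and 1.00). Under siFOXA1.2 both libraries lay below all controls (log2 fold change -0.42, SE 0.12, edgeR adjusted p = 0.0922), a difference that passed with DESeq2 (adjusted p = 0.0171) and without the filter (edgeR adjusted p = 0.0258).

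In SCaBER JUND had 338, 260.1, 263 and 271 CPM under siControl, 483 and 453 CPM under siFOXA1.1 and 206 and 304 CPM under siFOXA1.2. The siFOXA1.1 libraries were highest, at 1.65-fold (log2 fold change 0.76, SE 0.19, edgeR adjusted p = 0.0199; within batches 0.68 and 0.77). The adjusted p was 0.0939 without siControl.2 replicate 1, 0.0640 without siControl.1 replicate 2, 0.0747 without siControl.2 replicate 2 and 0.0514 with limma on TPM.

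JUNB, which in many cells opposes c-Jun, had log2 fold changes of opposite sign in the lines. In RT112 it had 164, 131, 107.1 and 107.0 CPM under siControl, 101 and 70.6 CPM under siFOXA1.1 and 106 and 114 CPM under siFOXA1.2. Both siFOXA1.1 libraries were below every other library, but the log2 fold change of -0.42 (SE 0.16, edgeR adjusted p = 0.0550) missed the threshold. It passed with the replicate number as a block (adjusted p = 0.0432), with library totals in place of TMM (0.0168), without the filter (0.0423), with limma on TPM (0.0106), without siFOXA1.1 replicate 1 (0.0112) and without siControl.1 replicate 2 (0.0442). In SCaBER it had 122, 158, 92.2 and 73.5 CPM under siControl and 137 and 174 CPM under siFOXA1.1, which overlapped, with 142 and 132 CPM under siFOXA1.2 (siFOXA1.1 log2 fold change 0.56, SE 0.19, edgeR adjusted p = 0.0933).

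Among the FOS family, FOS in RT112 had 20.1, 22.8, 16.9 and 21.4 CPM under siControl, 3.08 and 3.83 CPM under siFOXA1.1 and 10.9 and 18.98 CPM under siFOXA1.2. The siFOXA1.1 libraries were the lowest by a wide gap and held 17.0% of the control mean (log2 fold change -2.41, SE 0.43, edgeR adjusted p = 0.000259; within batches -2.26 in each). FOSB, its closest relative in sequence, had 0.526, 1.36, 5.46 and 0.556 CPM under siControl and 10.4 and 12.4 CPM under siFOXA1.1. FOSB was thus higher in RT112 where FOS fell. All 4 siFOXA1 libraries but 1 of 4 control libraries reached 10 counts, so the gene was tested only because it was high there, and its fitted log2 fold change of 2.88 (SE 0.77; within batches 1.51 and 2.77) is given as a description. It was 4.08 without siControl.2 replicate 1 and 1.52 with limma on TPM. Under siFOXA1.2 FOSB had 3.64 and 5.60 CPM, overlapping the controls.

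In SCaBER neither FOS nor FOSB passed the filter. FOS had 0 and 2 counts under siFOXA1.1 and 1 and 6 under siFOXA1.2, against up to 11 in a control, so that a change was not detectable at this depth. FOSB had 13 and 22 counts under siFOXA1.1, 1 and 0 under siFOXA1.2 and 0 to 18 under siControl.

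FOSL1 in RT112 had 15.9, 14.6, 12.2 and 9.17 CPM under siControl, 4.54 and 8.69 CPM under siFOXA1.1 and 12.5 and 15.7 CPM under siFOXA1.2. The siFOXA1.1 libraries lay below the others, with a log2 fold change of -0.81 (SE 0.43, edgeR adjusted p = 0.166). Limma on TPM called it (adjusted p = 0.0134). In SCaBER, where FOSL1 was abundant, it had 355, 604, 258 and 302 CPM under siControl, 146 and 266 CPM under siFOXA1.1 and 242 and 284 CPM under siFOXA1.2. The groups overlapped by 1 library and the log2 fold change was again -0.81 (SE 0.25, edgeR adjusted p = 0.0534). It passed with the replicate block (adjusted p = 0.00580), with DESeq2 (0.0160), without the filter (0.00182), without siControl.1 replicate 1 (0.0233) and without siFOXA1.1 replicate 2 (0.00570).

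FOSL2 had 56.7 to 68.7 CPM under siControl in RT112 and 103 and 61.7 CPM under siFOXA1.1, so that its 2 libraries disagreed (log2 fold change 0.48, SE 0.21, edgeR adjusted p = 0.0879, and 0.0125 without siFOXA1.1 replicate 2). In SCaBER it had 38.1 and 40.2 CPM under siFOXA1.1, within the control range of 21.1 to 40.4 CPM (log2 fold change 0.27, SE 0.30, edgeR adjusted p = 0.662).

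ATF3, which responds to endoplasmic reticulum stress, DNA damage and cytokines, had 5.65, 10.1, 10.5 and 10.1 CPM in RT112 siControl. It had 37.2 and 27.4 CPM under siFOXA1.1 and 7.58 and 6.83 CPM under siFOXA1.2. The siFOXA1.1 libraries stood apart at 3.55-fold (log2 fold change 1.97, SE 0.35, edgeR adjusted p = 0.000245; within batches 2.07 and 1.35). In SCaBER it had 44.3 and 86.8 CPM under siFOXA1.1 against 32.1, 52.7, 18.5 and 21.4 CPM under siControl, and 23.1 and 15.8 CPM under siFOXA1.2. The siFOXA1.1 and control libraries overlapped there although the gene was called (log2 fold change 1.2, SE 0.31, edgeR adjusted p = 0.0248; within batches 0.78 and 1.21). The adjusted p was 0.0753 without siControl.1 replicate 1, 0.110 without siControl.2 replicate 1, 0.0718 without siControl.2 replicate 2, 0.296 without siFOXA1.1 replicate 2 and 0.125 with limma on TPM.

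**Figure D3:**
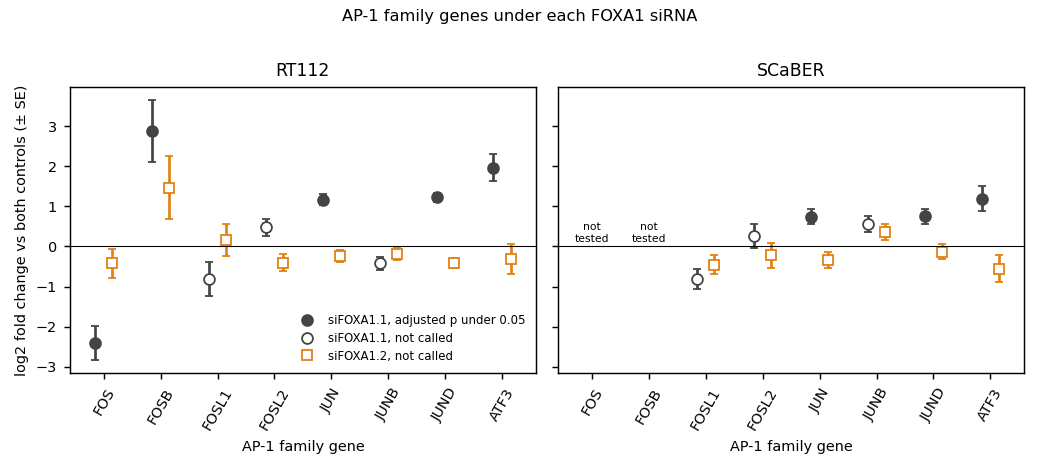
log2 fold change against both controls (± SE from edgeR) of each AP-1 family gene in RT112 and SCaBER, for siFOXA1.1 (circles, filled where the adjusted p was under 0.05) and siFOXA1.2 (open squares, none under 0.05). The siFOXA1.1 values of JUN, JUND and ATF3 were above 0 and their siFOXA1.2 values below 0 in both lines.

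Under siFOXA1.2, 0 of 8 members passed in RT112 in edgeR, against 2.04% of all genes, with 1 member (JUND) at an unadjusted p under 0.05, 1 called by DESeq2 and 0 by limma. In SCaBER 0 of 6 passed, against 0.0420% of all genes, with 0 members at an unadjusted p under 0.05 and 0 called by DESeq2 or limma. The RT112 log2 fold changes ran from -0.42 (FOS, SE 0.37, and JUND) to 1.46 (FOSB, SE 0.79), with JUN at -0.23 (SE 0.15), JUNB at -0.17 (SE 0.16), FOSL2 at -0.41 (SE 0.22), FOSL1 at 0.16 (SE 0.40) and ATF3 at -0.31 (SE 0.38). In SCaBER they ran from -0.55 (ATF3, SE 0.33) to 0.37 (JUNB, SE 0.20), with FOSL1 at -0.46 (SE 0.24), JUN at -0.33 (SE 0.20), FOSL2 at -0.22 (SE 0.30) and JUND at -0.13 (SE 0.19). These values share their controls with those of siFOXA1.1, so the siRNAs were also compared with each other.

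Between siFOXA1.1 and siFOXA1.2, 5 of 8 members differed in RT112 in edgeR (28.1% of all genes did), and 3 of 6 in SCaBER (4.85% of all genes). JUN was higher under siFOXA1.1 by 1.40 on the log2 scale in RT112 (SE 0.17, adjusted p = 1.15e-05) and by 1.07 in SCaBER (SE 0.23, adjusted p = 0.0134). JUND was higher by 1.65 (SE 0.14, adjusted p = 1.27e-07) and 0.89 (SE 0.22, adjusted p = 0.0336), and ATF3 by 2.27 (SE 0.44, adjusted p = 0.000731) and 1.75 (SE 0.38, adjusted p = 0.0157), in RT112 and SCaBER. In RT112 FOSL2 was also higher, by 0.88 (SE 0.25, adjusted p = 0.0117), and FOS was lower, at -1.99 (SE 0.46, adjusted p = 0.00320). In RT112 the FOS call was lost without siFOXA1.2 replicate 2 (adjusted p = 0.0523) and that of FOSL2 without siFOXA1.1 replicate 1 (0.184), without siFOXA1.2 replicate 2 (0.141) and with limma on TPM (0.212).

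The 3 SCaBER differences were lost without either siFOXA1.2 library. Without siFOXA1.2 replicate 1 the edgeR adjusted p was 0.132 for JUN, 0.377 for JUND and 0.103 for ATF3, and without replicate 2 it was 0.174, 0.0661 and 0.193. The JUND call was also lost without siControl.2 replicate 1 (0.0835) or replicate 2 (0.0754), the ATF3 call without siFOXA1.1 replicate 2 (0.101), and all 3 with limma on TPM (0.0569, 0.0641 and 0.0871 for JUN, JUND and ATF3).

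The background of this design is the difference between siControl.1 and siControl.2. No member passed in edgeR in either line, with 3 members at an unadjusted p under 0.05 in each and 0 called by DESeq2 or limma, while 2.36% of all genes passed in RT112 and 0.0672% in SCaBER. In RT112 JUNB (0.52, SE 0.18) and JUND (0.30, SE 0.14) had the larger log2 value under siControl.1 and JUN (-0.37, SE 0.17) the smaller. In SCaBER ATF3 differed by 1.07 (SE 0.38), FOSL1 by 0.76 (SE 0.27) and JUNB by 0.74 (SE 0.23), edgeR adjusted p being 0.615, 0.615 and 0.467. The ATF3 and FOSL1 values between the controls of SCaBER are thus close in size to those of siFOXA1.1 against both controls. For JUNB the difference between the controls was larger than that of siFOXA1.1 in both lines, 0.74 beside 0.56 in SCaBER and 0.52 beside -0.42 in RT112.

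With both siFOXA1 siRNAs pooled, 0 of 8 members passed in RT112 in edgeR (0.108% of all genes) and 0 of 6 in SCaBER (0.00840% of all genes), with 3 and 1 members at an unadjusted p under 0.05 and 0 called by DESeq2 or limma. The pooled log2 fold changes of these were -1.09 (SE 0.49) for FOS, 2.12 (SE 0.80) for FOSB, again tested only through its siFOXA1 libraries, and 1.23 (SE 0.54) for ATF3 in RT112, and -0.67 (SE 0.26) for FOSL1 in SCaBER.

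Whether the lines differed in their response was tested as the effect in SCaBER minus that in RT112 over all 16 libraries. For siFOXA1.1 1 of 8 members passed in edgeR, against 3.14% of all 13701 genes. JUNB was 0.99 higher in SCaBER on the log2 scale (SE 0.26, adjusted p = 0.0440). This call was fragile, and JUNB differed by 0.74 between the SCaBER controls alone. Leaving out any 1 of 13 of the 16 libraries lost it, with adjusted p from 0.0518 (without RT112 siControl.1 replicate 2) to 0.210 (without RT112 siFOXA1.1 replicate 2), the exceptions being RT112 siFOXA1.1 replicate 1, SCaBER siFOXA1.1 replicate 1 and SCaBER siControl.1 replicate 2. Leaving out the mitochondrial genes gave 0.0514.

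The differences for JUN (-0.41, SE 0.26), JUND (-0.46, SE 0.24) and ATF3 (-0.76, SE 0.47) did not pass (edgeR adjusted p = 0.485, 0.352 and 0.472), so that a weaker rise in SCaBER was not shown. The 95% interval, from a normal quantile and so rather narrow, was -0.93 to 0.11 for JUN, -0.92 to 0.0041 for JUND and -1.68 to 0.17 for ATF3. For siFOXA1.2 0 of 8 members passed (0.0438% of all genes), with 1 member (FOSB, at or near the floor in SCaBER) at an unadjusted p under 0.05 and 0 called by DESeq2 or limma.

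The make-up of each family in TPM brings these values together. In RT112 siControl the FOS family TPM was split between FOSL2 at 40.3% ± 4.46, FOSL1 at 30.3% ± 5.88 and FOS at 27.8% ± 3.09, with FOSB at 1.59% ± 1.95 (SD, n = 4 each). In CPM the same split was 64.7% ± 3.36 FOSL2, 20.3% ± 2.34 FOS, 13.0% ± 3.28 FOSL1 and 1.95% ± 2.33 FOSB, so the shares depend on the division by length. Under siFOXA1.1 FOSL2 took 73.4 and 51.8%, FOS 4.82 and 7.10% and FOSB 9.53 and 13.4% in replicates 1 and 2, the order used below. The FOS, FOSB and FOSL2 shares were outside the control ranges, in CPM too, where they were 2.53 and 4.42%, 8.56 and 14.3%, and 85.2 and 71.3%. The family sum was 34.8 and 27.8 TPM against 42.3 to 46.6 TPM under siControl, and FOSL2 itself was at 25.6 and 14.4 TPM against 15.1 to 19.2 TPM. Its larger share thus went with a smaller sum and not with a higher level in both libraries. In SCaBER FOSL1 took 93.1 to 98.2% of the FOS family TPM in the 8 libraries, and 78.3 to 93.6% in CPM, where siFOXA1.1 (78.3 and 85.9%) lay below the controls (86.1 to 93.6%). The JUN family of RT112 was 56.9% ± 4.04 JUND, 23.5% ± 3.68 JUNB and 19.6% ± 4.94 JUN under siControl (SD, n = 4 each). Under siFOXA1.1 it was 70.5 and 66.9% JUND and 10.3 and 7.64% JUNB. The sum of the family went from 521 to 607 TPM under siControl to 956 and 847 TPM. In CPM the JUND share under siFOXA1.1, 60.3 and 54.5%, overlapped that of the controls, 45.1 to 56.2%, whereas that of JUNB, 8.59 and 6.08%, lay below the controls at 15.8 to 24.2%. In SCaBER the sum went from 614 to 794 TPM under siControl to 1109 and 1129 TPM, while the JUND share stayed within the control range, at 58.1 and 56.5% against 46.6 to 59.7%.

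**Figure D4:**
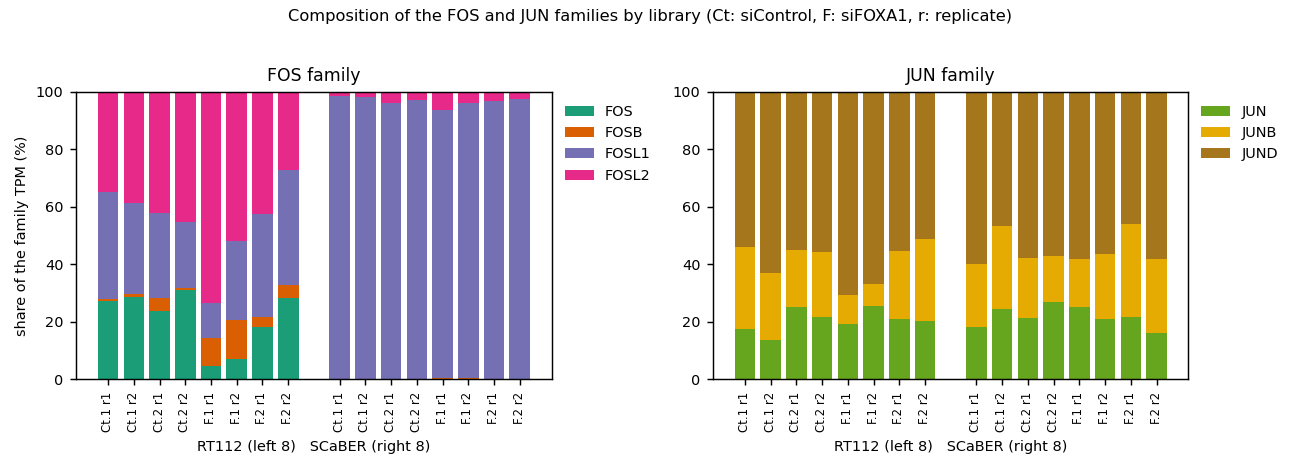
Share of the summed TPM of the FOS family (left) and of the JUN family (right) taken by each gene, in percent, for each of the 16 libraries (Ct: siControl, F: siFOXA1, r: replicate). FOSL1 filled 93.1% or more of every SCaBER bar, and the JUNB segment of RT112 was narrowest under siFOXA1.1, at 10.3 and 7.64% in replicates 1 and 2.

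The genes around AP-1 were taken from lists. Among 23 other bZIP genes, which can share partners or sites with AP-1, 19 were tested in RT112 under siFOXA1.1, where 4 rose and 2 fell (median log2 fold change 0.33, against -0.01 over all genes tested). In this comparison 15.6% of all genes rose and 17.0% fell, and in SCaBER 4.47% and 4.79%, and each count of a list is to be read beside these shares. The 6 of 19 called here lie near the 32.6% of all genes. BATF, which pairs with JUN proteins, rose by 1.41 (SE 0.27), DDIT3 by 1.5 (SE 0.51) and the small Maf gene MAFG by 0.70 (SE 0.18), with edgeR adjusted p between 0.000546 for BATF and 0.0317 for DDIT3. In SCaBER 2 of 19 rose, MAFK (0.92, SE 0.22) and ATF6 (0.82, SE 0.23), and none fell (median 0.26).

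MAP kinases relay growth factor and stress signals to AP-1. Of 23 such genes 4 rose and 5 fell in RT112 (median -0.21), and 0 rose and 1 of 21 fell in SCaBER (median -0.11), against 32.6% and 9.26% of all genes called. In RT112 MAPK3, which encodes ERK1, fell (log2 fold change -1.0, SE 0.23, edgeR adjusted p = 0.00257), as did RPS6KA1 (-1.11, SE 0.35, adjusted p = 0.0217) and MAP2K6 (-1.24, SE 0.45, adjusted p = 0.0435).

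Genes induced or held back by ERK signalling include DUSP and SPRY feedback inhibitors. Of 12 tested in RT112 4 fell and SPRY1 rose (median -0.43), where 17.0% of all genes fell. DUSP6 went from 105 to 39.5 CPM (-1.29, SE 0.20, edgeR adjusted p = 8.20e-05), and ETV4 from 26.2 to 5.65 CPM (-2.08, SE 0.37, adjusted p = 0.000258). DUSP4 fell as well (-1.59, SE 0.41, adjusted p = 0.00549). In SCaBER 0 of 11 passed in edgeR, with 4 at an unadjusted p under 0.05 (median -0.31).

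Of the other immediate early genes 6 of 13 rose and 2 fell in RT112 (median 0.78), where 15.6% of all genes rose. CYR61, a matricellular gene, rose from 6.21 to 55.9 CPM (3.32, SE 0.29, edgeR adjusted p = 1.43e-07), DUSP1 rose by 1.90 (SE 0.64) and PPP1R15A by 1.14 (SE 0.23), whereas the antiproliferative gene BTG2 fell (-2.21, SE 0.25, adjusted p = 3.09e-06). In SCaBER 2 of 13 rose, IER2 (0.82, SE 0.17, adjusted p = 0.00823) and MCL1 (0.69, SE 0.17, adjusted p = 0.0211), with a median of 0.19.

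Of 28 genes known as AP-1 targets 19 were tested in RT112, where 7 rose and 2 fell (median 0.42), and 24 in SCaBER, where 5 rose and 1 fell (median 0.28), against 32.6% and 9.26% of all genes called in either direction. MMP14, a membrane-bound matrix protease, rose in both, from 46.9 to 126 CPM in RT112 (1.61, SE 0.19, edgeR adjusted p = 3.77e-06) and from 65.7 to 139 CPM in SCaBER (1.12, SE 0.24, adjusted p = 0.00936). PLAU, encoding urokinase, rose in RT112 (2.63, SE 0.45, adjusted p = 0.000177), and its receptor gene PLAUR (1.65, SE 0.25, adjusted p = 0.000944) rose in SCaBER. Between the lines at siControl 15 of 24 targets were higher in SCaBER and 3 lower (median 2.47), against 22.2% and 21.2% of all genes. Among the higher was the metallothionein gene MT2A (log2 fold change 5.64, SE 0.31), while MMP1 was at 69.2 CPM in SCaBER and at 0 counts in the RT112 controls. MMP1 and MMP3, which was also at 0 in those controls, passed the filter on low counts through SCaBER alone. So did EREG, at 147 CPM in SCaBER and 0.493 CPM ± 0.986 (SD, n = 4) in the RT112 controls. These genes had to differ and are among the 15 of 24. No count or median was made without such genes, so the 15 of 24 cannot be weighed against the 22.2%.

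Stress genes that often move with ATF3 were counted beside it. In RT112 6 of 13 rose and 1 fell (median 1.24, with 15.6% and 17.0% of all genes rising and falling), with GADD45A at 1.54 (SE 0.30), DNAJB9 at 1.82 (SE 0.38) and VLDLR at 1.58 (SE 0.57), whereas DDIT4 fell (-2.39, SE 0.28). In SCaBER 4 of 12 rose and none fell (median 0.91, with 4.47% of all genes rising). These were CHAC1 (1.76, SE 0.41), SESN2 (1.43, SE 0.23), TRIB3 (1.02, SE 0.28) and GADD45A (0.71, SE 0.19).

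Interferon genes and cell type markers moved with the same siRNA. Of the interferon genes 9 of 13 rose in RT112 and 13 of 15 in SCaBER (15.6% and 4.47% of all genes), none falling, with medians of 2.39 and 2.53. IFI6 rose by 5.21 (SE 0.19) in RT112 and 3.84 (SE 0.23) in SCaBER. In SCaBER the summed interferon level was 8869 and 11378 CPM under siFOXA1.1 against 1862 to 3104 CPM under siControl, whereas under siFOXA1.2 it was 1717 and 1783 CPM, and in RT112 358 and 433 CPM. Of the luminal markers 6 of 7 fell in RT112 with FOXA1, the siRNA target, left out (median -0.77 with FOXA1). In SCaBER, where FOXA1 was not tested, 2 of 6 fell (median -0.38). The shares of all genes were 17.0% and 4.79%. Of the basal markers 2 of 9 rose and TP63 fell in RT112 while 1 of 10 rose in SCaBER. Of the 3 non-epithelial markers tested in RT112 COL1A1 rose (2.80, SE 0.28) and LUM fell (-0.78, SE 0.16). The part of the interferon genes or of the mitochondrial share in the AP-1 changes was not tested. Without the mitochondrial genes 5 members in RT112 and 3 in SCaBER passed in edgeR. In bulk RNA a change in fewer cells and a change in RNA per cell cannot be told apart.

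Under siFOXA1.2, 7 of the 128 tested genes on these lists, FOXA1 left out, passed in RT112 in edgeR, against 2.04% of all genes. At an unadjusted p under 0.05 there were 32 of the 128, against 12.1% of all genes. NFE2L2, the antioxidant bZIP gene, fell (-0.59, SE 0.14, adjusted p = 0.0319), whereas EGFR (0.51, SE 0.13), IVL (0.62, SE 0.15), CDH3 (0.70, SE 0.16) and CD44 (1.33, SE 0.15, adjusted p = 5.31e-05) rose. The luminal markers ELF3 (-1.03, SE 0.14) and UPK2 (-0.97, SE 0.19) fell. In SCaBER 0 of the 130 tested genes on these lists passed in edgeR, with 28 at an unadjusted p under 0.05, as were 634 of all 11902 genes (5.33%).

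How alike the members were over the 16 libraries was described with Pearson's r of log2(CPM + 1), centred within each line. The libraries share siRNAs and lines, so no test was made. Centring within a line keeps the differences between siRNAs. The r of members that moved under siFOXA1.1 is therefore not separate from those changes. JUN and ATF3 had r = 0.82, JUN and JUND 0.80 and JUND and ATF3 0.79. In RT112 alone (8 libraries) these were 0.86, 0.84 and 0.92 and in SCaBER 0.78, 0.73 and 0.61, though Spearman's rho for JUND with JUN and ATF3 was lower, at 0.59 and 0.57. FOS and FOSB had r = -0.76, with -0.80 in RT112 and -0.68 in SCaBER, where both genes lay near the floor. JUNB and ATF3 had -0.70 in RT112 and 0.67 in SCaBER.

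Among 9706 genes with a mean of at least 20 counts in each line, the genes most like each member were as follows. For JUN it was PFDN1 (r = 0.93). For JUND they were CLTB (0.96) and SIRT7 (0.95), and for ATF3 TSG101 (0.94, but Spearman's rho 0.79) and WBP2 (0.93). For FOS they were PLP2 (0.91) and RAB35 (0.90), for FOSL1 ERICH1 (0.91) and OSBPL9 (0.90), and for JUNB ITPR3 (0.85) and ELF4 (0.85). FOSL2 came closest to BCAP31 (0.87) and STAM (0.82), and FOSB to CCDC174 (0.86) and MRPS9 (0.86). Each r rests on 16 libraries, with the differences between siRNAs left in. As the highest of 9706 values were picked, a high r follows in part from the choice.

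By position in GRCh38.p14, JUNB on chromosome 19 from 12791486 to 12793315 overlaps HOOK2, and FOSL2 on chromosome 2 from 28392858 to 28417317 overlaps FOSL2-AS1. The strand setting of the counting was automatic, so reads of such pairs may be hard to assign. JUN (chromosome 1, 58780791 to 58784047), JUND (chromosome 19, 18279694 to 18281622), ATF3 (chromosome 1, 212565407 to 212620777), FOS (chromosome 14, 75278828 to 75282230), FOSB (chromosome 19, 45467996 to 45475179) and FOSL1 (chromosome 11, 65892049 to 65900545) overlap no other annotated gene.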

How the data were processed

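RNA of 16 libraries was measured by QuantSeq forward sequencing, which reads the 3′ end of each transcript, and no molecular identifiers are mentioned, so intervals and floors cover counting error only. The authors deposited raw counts per gene and TPM values. A configuration file among those deposited names trimming by TrimGalore 0.6.2 (minimum quality 20, minimum length 10), alignment by STAR 2.6.1a to hg38 and counting on GENCODE release 29, whereas the methods name hg19. As 3′ reads do not cover a transcript, division by length in the deposited TPM values lifts short genes. Columns of other series numbered 0.

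Counts were tested with edgeR 4.0.16 in R 4.3.3 (TMM, quasi-likelihood test, all 4 siRNAs of a line in 1 fit, both lines for the interaction), with Benjamini-Hochberg adjustment over all genes that passed filterByExpr. Standard errors are the absolute log2 fold change divided by the square root of the F statistic of the same fit. The 95% intervals were made from them with a normal quantile, which leaves them narrow for so few libraries. The grouping of this filter, by line and target, replaced grouping by siRNA after a first run had been seen. The siRNA grouping is an alternative chosen after seeing the data, and it changed no call of a member. DESeq2 1.42.0 and limma 3.58.1 on log2(TPM + 1) were further alternatives, with library totals, no mitochondrial genes, no filter, a replicate block and leaving out each library. The edgeR fit was tested on simulated data.

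The replicate numbers mark experiment batches in the labels. Deviations of same-numbered libraries correlated at -0.00678 to 0.0169 in RT112 and 0.00371 to 0.229 in SCaBER. CPM used library totals, and within-batch values are log2 ratios of CPM + 1 to the mean of both controls of that batch.

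The members and the 10 other lists were chosen with earlier results of these data known. From each list up to 4 called genes with the largest change and a mean of at least 20 counts were named per comparison, and per member the 2 genes nearest in profile. Defining markers at or near 0 could also be named. Some genes that this rule picks are not reported here.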

Additional observations from a re-analysis of the deposited data

Results flagged for a closer look

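Among 32 groups of 4 libraries (8 genes, 2 lines, control or FOXA1 siRNAs), 3 held a library far from the others. Chance alone marks about 5% of groups of 4 draws from 1 normal distribution. Each group here pools 2 siRNAs, so this share need not hold. In RT112 siControl, FOSB was at 5.46 CPM in siControl.2 replicate 1, the nearest library being at 1.36 CPM. ATF3 was at 5.65 CPM in RT112 siControl.1 replicate 1, below the nearest at 10.1 CPM. In SCaBER siControl, JUND was at 338 CPM in siControl.1 replicate 1, above the nearest at 271 CPM. The response of JUNB to siFOXA1.1 differed between the lines by 0.99 on the log2 scale in the test of the difference itself (edgeR interaction, adjusted p = 0.0440), and leaving out 1 library lost this call in 13 of 16 fits.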

How the results depend on the processing

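The 5 calls of RT112 under siFOXA1.1 (FOS, FOSB, JUN, JUND, ATF3) held in all 15 alternatives, that of FOSB at 1.52 to 4.08. In the main fit FOSB was tested only through its siFOXA1 libraries, as 1 of 4 control libraries reached 10 counts, and it was also called with no filter. Elsewhere the members called were 1 in RT112 under siFOXA1.2 with DESeq2 and 1 with no filter (0 before), and 0 with limma on TPM both for SCaBER siFOXA1.1 against the controls and against siFOXA1.2 (3 before). Without mitochondrial genes 0 members passed the siFOXA1.1 interaction. Leaving out 1 library gave 0 to 3 members for SCaBER siFOXA1.1 against the controls (0 without siControl.2 replicate 1, 1 without siControl.2 replicate 2), 0 to 3 against siFOXA1.2, 3 to 5 for RT112 siFOXA1.1 against siFOXA1.2 and 0 to 1 for the interaction. Signs turned on limma for JUNB (0.16) and JUND (0.24) between the lines, and among fits without 1 library for FOSL1 in RT112 under siFOXA1.2 (-0.017 to 0.31), FOSL2 (-0.41 to 0.038) and JUND (-0.43 to 0.12) in SCaBER under siFOXA1.2 and JUN between the lines (-0.0089 to 0.26), all uncalled. The cause was not tested. The replicate block called JUNB in RT112 (adjusted p = 0.0432) and FOSL1 in SCaBER (adjusted p = 0.00580) under siFOXA1.1 and changed no other call of a member. Over all genes, the count called moved by more than 1.5 times in 9 of 13 comparisons under settings other than leaving out a library. It was 245 for RT112 siFOXA1.2 (387 with DESeq2, 376 with no filter, 72 with limma), 5 for SCaBER siFOXA1.2 (42, 42 and 1), 283 between the RT112 controls (429, 449 and 78), 8 between the SCaBER controls (77, 91 and 0, and 35 with the block), 577 for SCaBER siFOXA1.1 against siFOXA1.2 (883 with DESeq2, 276 with limma), 430 for the siFOXA1.1 interaction (786 with DESeq2, 732 with no filter) and 6 for that of siFOXA1.2 (36, 66 with no filter, 0 with limma). For the pooled siRNAs it was 13 in RT112 (179 with DESeq2, 123 with no filter, 5 with library totals, 4 with limma, 0 with the block) and 1 in SCaBER (36 with DESeq2, 213 with no filter, 2 with limma, 0 with the block). Leaving out 1 library gave 64 to 380 calls for RT112 siFOXA1.2, 62 to 454 between the RT112 controls, 0 to 4 for the RT112 pool, 526 to 1371 for SCaBER siFOXA1.1, 108 to 1036 for SCaBER siFOXA1.1 against siFOXA1.2, 0 to 21 for SCaBER siFOXA1.2, 0 to 60 between the SCaBER controls, 0 to 3 for the SCaBER pool, 239 to 733 and 0 to 11 for the interactions. FOS and FOSB in SCaBER and FOSB in the RT112 controls lay near the floor of 3 counts, so depth limits what can be said of them.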
